A study of Rattus norvegicus with 65 samples.

Results

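The genes of fatty acid synthesis and desaturation that were followed in the livers of rats given hepatocarcinogens were Scd, Fasn, Acaca, Elovl6, Srebf1, Acly, Me1, Thrsp, Fads1 and Fads2. They were chosen by name, with earlier results of these data known, as 10 of the 14217 genes that the annotation pairs with a probe set of their own. Every probe set annotated to only one of these symbols was used, which gave 17. Between 5 and 9 of the 10 fell below control after long treatment with AAF, MeDAB, DEN or Ethionine, against 6.31% to 23% of genes. After the long treatment with Clofibrate or Dioxane no member passed the test, where only 0.136% and 0.164% of all genes did. The falls were of unlike depth by gene and compound: Scd fell most with AAF and MeDAB, to signals near the level of the filter on low values, whereas Fads1 was 34.5-fold lower with Ethionine and did not pass the test with AAF.

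Hepatocytes make fatty acids from citrate that leaves the mitochondrion. Acly splits citrate into acetyl-CoA, Acaca carboxylates acetyl-CoA to malonyl-CoA, Fasn builds palmitate from both with NADPH that Me1 among others supplies, Elovl6 lengthens palmitate, and Scd places a double bond in stearate and palmitate. Fads1 and Fads2 are the front-end desaturases that turn dietary linoleic and linolenic acid into longer polyunsaturated fatty acids. Srebf1 encodes a membrane-bound transcription factor that insulin raises in liver and that binds the promoters of most of these genes, and Thrsp encodes a small protein of lipogenic tissues that responds to thyroid hormone and carbohydrate.

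The livers came from 65 male Sprague-Dawley rats, 6 weeks old, with 1 array per rat. A genotoxic set held a control group and the compounds labelled 2-AAF, 3MeDAB and DEN, a nongenotoxic set held its own control group and Clofibrate, 1,4-Dioxane and DL-Ethionine, and a test set held DCP, ME, SN and Urethane with no control. Names are shortened here to AAF, MeDAB, Dioxane and Ethionine. Every compound was given for a short and a long time, labelled 3 and 72 hours, and the treatment protocol says that the repeated groups were dosed 3 times. The same protocol puts autopsy after 24 hours, which the labels of 3 and 72 hours do not match, so short and long are used here only as names of groups. Each group had 3 rats except DEN short, which had 2. The 22 groups were not compared across sets, because the sets appear to have been normalized apart. The titles give the controls no duration, so the short and long groups of a set share the same 3 control rats. Values are log2 signals of the brightest probe set of a gene, and a difference of 1 is a doubling. Differences are given ± SE from limma, and a gene was called where the Benjamini-Hochberg adjusted p over all genes tested was under 0.05. The hepatocyte markers Alb, Apoa1, Ttr, Cps1, Apoc3 and Fgb averaged between 13.8 and 14.2 in every group. Levels in whole liver cannot tell fewer cells of a type from less RNA per cell. Replicate arrays of a group correlated between 0.9791 and 0.9975, and no 2 arrays of a group held the same values. Arrays of different groups were not checked for this.

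Promoter sequence was used for 7 of the 10 members, from RefSeq on build GRCr8, as 300 bases that lie mostly before the transcription start. The 5 printed here belong to the members that fell most or that are compared directly below. Capitals mark matches on either strand to CCAAT, the box bound by NF-Y, which works beside SREBP proteins, and to GGGCGG, the GC box bound by Sp1. Those of Thrsp (chr1:161138915-161139214, minus strand), Acly (chr10:85963582-85963881, minus strand), Fads1 (chr1:216252442-216252741, plus strand), Fads2 (chr1:216171984-216172283, minus strand) and Scd (chr1:253231682-253231981, minus strand) read as follows.
Thrsp: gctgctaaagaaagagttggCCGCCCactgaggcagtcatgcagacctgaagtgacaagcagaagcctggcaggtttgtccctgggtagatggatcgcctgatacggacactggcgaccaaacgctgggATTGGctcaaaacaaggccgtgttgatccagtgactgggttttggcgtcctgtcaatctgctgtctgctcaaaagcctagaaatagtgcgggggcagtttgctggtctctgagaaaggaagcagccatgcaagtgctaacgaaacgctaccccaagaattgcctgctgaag
Acly: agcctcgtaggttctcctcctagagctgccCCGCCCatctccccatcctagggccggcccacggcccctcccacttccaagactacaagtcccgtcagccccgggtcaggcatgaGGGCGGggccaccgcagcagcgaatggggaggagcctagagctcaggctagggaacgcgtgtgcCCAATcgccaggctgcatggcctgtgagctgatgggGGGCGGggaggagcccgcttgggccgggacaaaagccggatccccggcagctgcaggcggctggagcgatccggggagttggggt
Fads1: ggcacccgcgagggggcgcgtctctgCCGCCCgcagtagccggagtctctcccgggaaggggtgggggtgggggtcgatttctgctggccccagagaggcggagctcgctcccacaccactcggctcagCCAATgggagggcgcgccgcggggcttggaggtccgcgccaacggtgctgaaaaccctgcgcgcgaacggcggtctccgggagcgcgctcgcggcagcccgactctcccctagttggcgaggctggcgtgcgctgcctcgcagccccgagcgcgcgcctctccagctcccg
Fads2: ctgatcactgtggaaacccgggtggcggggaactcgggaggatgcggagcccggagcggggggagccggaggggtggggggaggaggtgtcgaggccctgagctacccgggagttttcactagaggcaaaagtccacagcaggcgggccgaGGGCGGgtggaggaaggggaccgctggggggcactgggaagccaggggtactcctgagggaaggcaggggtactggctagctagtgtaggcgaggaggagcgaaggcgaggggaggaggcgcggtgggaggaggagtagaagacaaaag
Scd: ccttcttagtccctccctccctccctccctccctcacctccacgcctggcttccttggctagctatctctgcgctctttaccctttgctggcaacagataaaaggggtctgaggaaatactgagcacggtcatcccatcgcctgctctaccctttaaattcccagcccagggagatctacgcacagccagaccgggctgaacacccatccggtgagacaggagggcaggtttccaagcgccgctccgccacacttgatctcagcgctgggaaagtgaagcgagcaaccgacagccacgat
Thrsp, Acly and Fads1 carry both motifs in this window, Fads2 carries a GC box without CCAAT, and the Scd window holds no match to any motif searched. CCAAT occurred in promoters of 4 of the 7 members, Srebf1 being the other, against 37.5% of 33469 promoters of the same length. GGGCGG occurred in 6 of 7 members against 33.1%. Srebf1 had more than 1 window, and a member was counted if any window matched. The shares of all promoters count single promoters and were not matched for GC content. The SREBP-type E-box CATGTG was found in 1 (Srebf1), against 14%. The E-box CACGTG and the sterol response elements CACCCCAC and TCACNCCAC were found in 0 of the 7, against 6.42%, 2.7% and 1.12% of promoters. The direct repeat 4 (DR4) element, the type bound by thyroid hormone receptor and LXR, was also found in 0 of the 7, against 0.00598%. Fads1 and Fads2 lie beside each other on chromosome 1, on opposite strands, with start sites 80.7 kb apart and 0 protein-coding genes between them.

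Against its own control, each long group of AAF, MeDAB, DEN and Ethionine had lower lipogenic genes. In AAF long 6 of the 10 members fell and 1 rose, against 16.1% of 11007 genes lower and 16% higher. In MeDAB long 8 fell and 0 rose, against 17.7% and 35.9%. In Ethionine long 9 fell and 0 rose, against 23% and 30%, and in DEN long 5 fell and 0 rose, against 6.31% and 10.4%. The median difference of the members was -1.17 for AAF, -2.12 for MeDAB, -0.77 for DEN and -2.10 for Ethionine, and that of all genes tested lay between -0.0023 and 0.12. The arrays did not overlap between treated and control rats in 5, 9, 7 and 9 of the members in that order. The share of all genes without overlap was not counted, so these numbers only describe the members. Without control rat 1 of the genotoxic set 2 members fell in DEN long, and without DEN long rat 3 only Acaca fell, with 1 member, Srebf1, called higher. When only the 6 arrays of AAF long and its control were fitted, 4 members were called in place of 7, Fasn, Acaca and Fads2 no longer passing (adjusted p = 0.128, 0.0631 and 0.105).

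**Figure D1:**
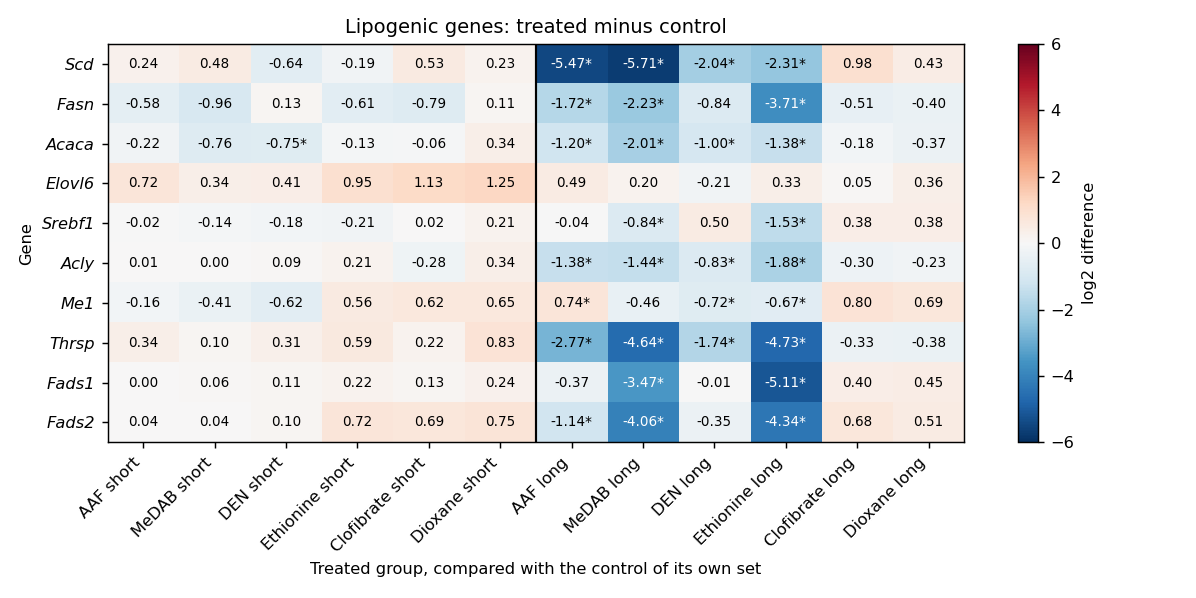
Log2 difference of each member (rows) between a treated group and the control of its own set (columns), short groups on the left and long groups on the right of the line, with blue for lower and red for higher. An asterisk marks a limma adjusted p under 0.05, and 29 lower and 1 higher call fall on the map, 28 of the lower calls in AAF, MeDAB, DEN and Ethionine long.

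After the long treatment with Clofibrate or Dioxane, and in 5 of the 6 short groups, limma called 0 members. The members with an unadjusted p under 0.05 numbered 1 in Clofibrate long and 1 in Dioxane long. They numbered 0 in AAF short, 2 in MeDAB short, 2 in Clofibrate short, 3 in Dioxane short and 2 in Ethionine short. Of all genes, 0.136% were called and 9.22% had such an unadjusted p in Clofibrate long, and 0.164% and 9.38% in Dioxane long. In the short groups these shares were 8.49% and 22.4% for AAF, 0.918% and 13.5% for MeDAB, 2.9% and 16.3% for Clofibrate, 5.5% and 20.4% for Dioxane, and 5.15% and 18.8% for Ethionine. DEN short had 1 call, Acaca at -0.75 ± 0.27 (adjusted p = 0.0494), against 10.3% of all genes lower and 7.2% higher, and this call was lost without any 1 of the 3 control rats (adjusted p from 0.0576 to 0.145) or either DEN short rat (adjusted p = 0.105 and 0.301). In the latter fits the lone DEN short rat is assumed to vary like the other groups, and without rat 2 Me1 was called lower (-1.07, adjusted p = 0.0153).

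Markers of other cells and of RNA quality moved with some of these groups, and their part in the results was not tested. The mean of 5 macrophage markers was 10.9 (10.6 to 11.1) in Ethionine long against 9.44 (9.25 to 9.55) in its control, with 5 of 5 called higher. It was 10.3 (10.2 to 10.6) in MeDAB long and 10.5 (10.4 to 10.6) in DEN long against 9.82 (9.7 to 9.97), with 3 of 5 called higher in each. In AAF long it was 9.28 (9.06 to 9.53), with 3 of 5 called lower. Fabp4, which macrophages share with fat cells, was higher by 1.99 ± 0.35 in MeDAB long and 2.44 ± 0.35 in DEN long. Of 4 stellate cell markers 1 was called higher in each of the 4 long groups and 2 were lower in AAF and MeDAB long, and of 2 tested bile duct markers 1 was higher in AAF, MeDAB and Ethionine long and 1 was lower in AAF and Ethionine long. The defining fat cell genes Adipoq and Plin1 lay above the median of the table in 0 arrays, and Lep in 2 of 21 arrays of the nongenotoxic set and 0 of the other arrays. Cfd, the other gene of that list of 5, lay above it in all arrays, and was higher in Ethionine long by 0.75 ± 0.21 (adjusted p = 0.00335) without a call in AAF, MeDAB or DEN long. The Gapdh 3' minus 5' probe set difference, a sign of RNA integrity, was 0.339 (0.24 to 0.393) in MeDAB long and 0.51 (0.443 to 0.633) in its control. In AAF long it was 0.947 in rat 1 and 0.282 and 0.189 in rats 2 and 3, and the mean of the 9 members other than Srebf1 was 10.34 in rat 1 against 8.83 and 8.82. In DEN long it was 0.52, 0.697 and 0.843, highest in rat 3, whose mean of those 9 was 9.45 against 10.07 and 10.18.

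Scd, which makes oleic acid from stearic acid, had the largest falls of the set in the genotoxic compounds. The genotoxic control rats read 11.73, 12.51 and 12.6. AAF long rats read 8.71, 5.89 and 5.83, MeDAB long rats 7.28, 6.33 and 6.1, and DEN long rats 10.51, 11.4 and 8.82. All 9 treated rats lay below the lowest control, and rats 2 and 3 of AAF and MeDAB long lay close to the filter level of 6.03. The difference from control was -5.47 ± 0.53 with AAF (adjusted p = 5.22e-09), -5.71 ± 0.53 with MeDAB (adjusted p = 2.43e-10) and -2.04 ± 0.53 with DEN (adjusted p = 0.00642). The DEN call rested on rat 3: without it the difference was -1.33 (adjusted p = 0.106). Ethionine long rats read 10.03, 9.71 and 10.06 against nongenotoxic control rats at 11.68, 12.44 and 12.62, a difference of -2.31 ± 0.53 (adjusted p = 0.000451). Clofibrate long rats read 12.63, 13.47 and 13.59, above all 3 controls, yet the difference of 0.98 did not pass, with a 95% interval from -0.10 to 2.06. In the short groups Scd differed from control by -0.64 to 0.53, with 0 of 6 called.

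Thrsp, also called Spot 14, fell in all 4 of these long groups. Genotoxic control rats read 12.42, 11.61 and 11.55. AAF long rats read 10.71, 8.76 and 7.79, MeDAB long rats 8.7, 6.42 and 6.55, and DEN long rats 10.72, 10.88 and 8.77. Again every treated rat lay below the lowest control, and AAF rat 1 and MeDAB rat 1 lay well above the other rats of their groups. The differences were -2.77 ± 0.53 with AAF (adjusted p = 0.000172), -4.64 ± 0.53 with MeDAB (adjusted p = 1.19e-08) and -1.74 ± 0.53 with DEN (adjusted p = 0.0199). Without DEN rat 3 the DEN difference was -1.06 (adjusted p = 0.223), and without control rat 1 it was -1.46 (adjusted p = 0.108). Ethionine long rats read 7.59, 7.92 and 6.78 against controls at 12.58, 11.94 and 11.96, a difference of -4.73 ± 0.53, or 26.5-fold lower (adjusted p = 6.28e-09).

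Fads1 and Fads2, the delta-5 and delta-6 desaturases, fell with MeDAB and Ethionine and did not pass the test with DEN. Fads1 read 12.28, 12.24 and 12.18 in genotoxic controls and 12.21, 12.19 and 12.26 in DEN long. In MeDAB long it read 9.84, 8.29 and 8.16, and in AAF long 12.62, 11.52 and 11.45. The DEN rats lay among the controls, the MeDAB rats all lay far below them, and AAF rats lay on both sides. Fads1 fell by 3.47 ± 0.28 with MeDAB (adjusted p = 9.48e-12). With DEN its difference was -0.01 (95% interval -0.58 to 0.55), and with AAF -0.37, which passed only without AAF long rat 1 (-0.75, adjusted p = 0.0307). In the nongenotoxic set the controls read 12.44, 12.27 and 12.37 and Ethionine long rats 7.62, 7.37 and 6.76, a difference of -5.11 ± 0.28 (adjusted p = 5.65e-16), the largest of this gene in the 12 comparisons with a control.

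In its calls against control, Fads2 followed Fads1 with 1 exception. Genotoxic controls read 10.92, 11.19 and 11.36, DEN long rats 10.8, 10.71 and 10.9, MeDAB long rats 8.54, 6.48 and 6.25, and AAF long rats 11.06, 9.64 and 9.35. It fell by 4.06 ± 0.37 with MeDAB (adjusted p = 1.22e-10) and by 1.14 ± 0.37 with AAF (adjusted p = 0.0169), where Fads1 had not passed. AAF rat 1 lay within the control range, and the AAF call was lost without control rat 3 (-1.04, adjusted p = 0.0652), AAF rat 2 (-0.95, adjusted p = 0.0931) or AAF rat 3 (-0.80, adjusted p = 0.134). In DEN long the difference of -0.35 did not pass, though its rats all lay below the lowest control, unlike those of Fads1. Ethionine long rats read 6.72, 6.75 and 6.61 against controls at 11.06, 10.77 and 11.27, a difference of -4.34 ± 0.37, or 20.2-fold lower (adjusted p = 1.73e-11). Compared directly, AAF long lay above MeDAB long by 3.10 ± 0.28 for Fads1 and 2.93 ± 0.37 for Fads2, and the MeDAB minus DEN difference was -3.46 and -3.71 (adjusted p = 3.76e-11 and 2.37e-09).

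**Figure D2:**
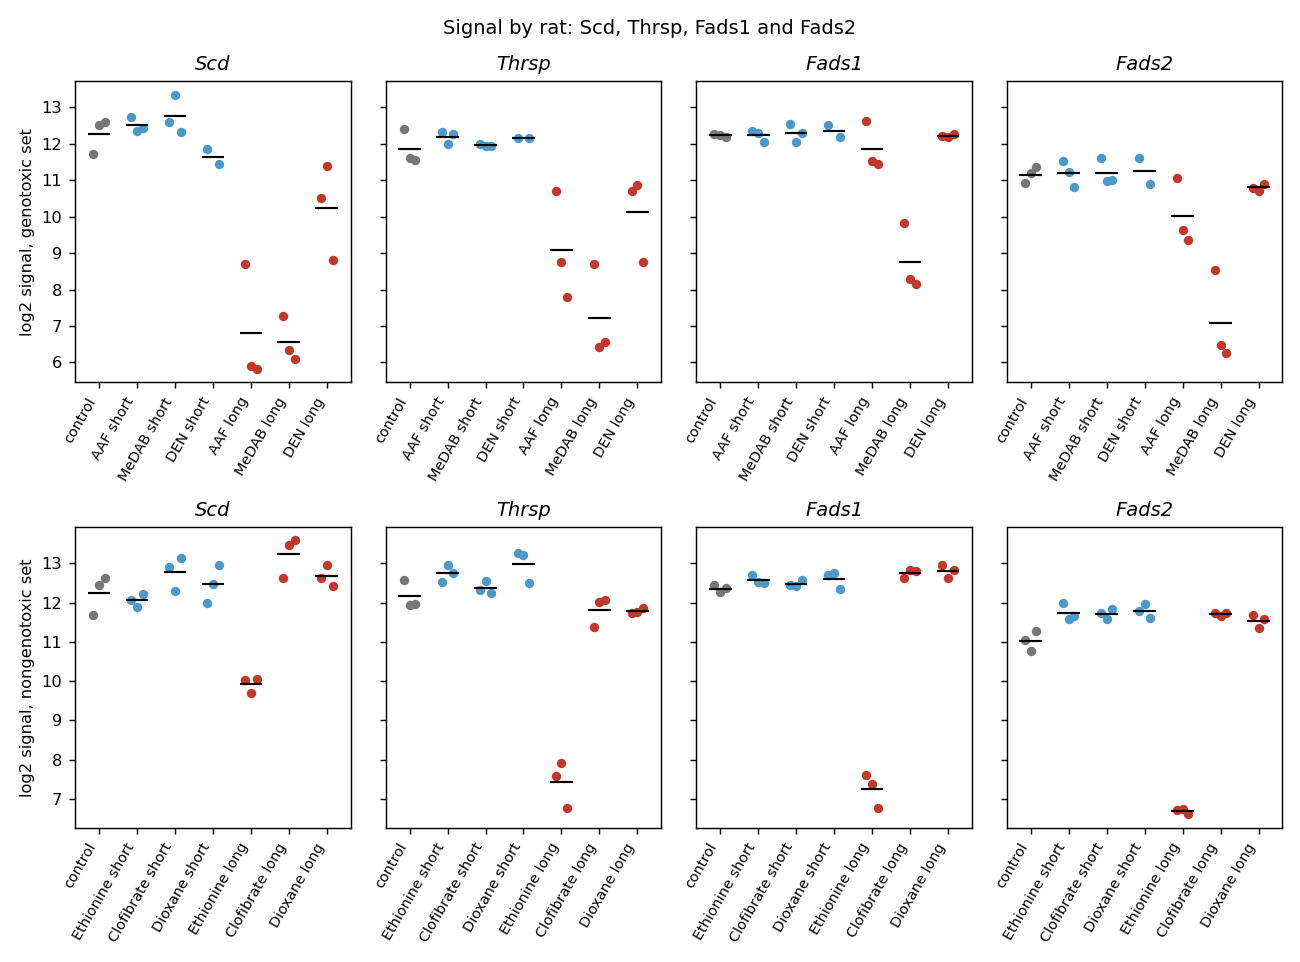
Log2 signal of Scd, Thrsp, Fads1 and Fads2 in each rat (points) of the genotoxic set (top) and the nongenotoxic set (bottom), with the group mean as a line, control in grey, short groups in blue and long groups in red. DEN long rats lie at 12.19 to 12.26 for Fads1, among the controls, and at 8.82 to 11.4 for Scd, below them, while Ethionine long rats lie lowest of their set in all 4 genes.

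Fasn, which assembles palmitate, read 11, 10.34 and 10.44 in genotoxic controls. It read 10.67, 8.06 and 7.89 in AAF long, 8.39, 8.35 and 8.37 in MeDAB long, and 9.94, 10.09 and 9.25 in DEN long. AAF rat 1 was inside the control range, whereas the MeDAB rats were low and alike. Fasn fell by 1.72 ± 0.39 with AAF (adjusted p = 0.00117) and 2.23 ± 0.39 with MeDAB (adjusted p = 1.77e-05), and the DEN difference of -0.84 did not pass, though its rats did not overlap with the controls. Ethionine long rats read 7.18, 7.37 and 7.26 against controls at 11.61, 10.6 and 10.73, a difference of -3.71 ± 0.39, or 13.1-fold lower (adjusted p = 2.23e-09).

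Acaca, the step before Fasn, fell in all 4 groups, with differences of -1.2 ± 0.24 with AAF, -2.01 ± 0.24 with MeDAB, -1.0 ± 0.24 with DEN and -1.38 ± 0.24 with Ethionine (adjusted p from 3.17e-08 to 0.0032). Its controls read 10.34, 9.98 and 10.14 in the genotoxic set, and MeDAB long rats read 8.17, 8.11 and 8.14. AAF long rats read 9.85, 8.46 and 8.56 and DEN long rats 9.24, 9.42 and 8.81, all below the lowest control. Acly, which supplies acetyl-CoA from citrate, fell too, with differences of -1.38 ± 0.25, -1.44 ± 0.25, -0.83 ± 0.25 and -1.88 ± 0.25 in AAF, MeDAB, DEN and Ethionine long (adjusted p from 2.14e-07 to 0.0214). Its Ethionine long rats read 10.03, 10.26 and 10.17 against 12.59, 11.63 and 11.88 in their control. The Acly call in DEN long was lost without DEN rat 3 (-0.50, adjusted p = 0.234) or control rat 1 (-0.66, adjusted p = 0.13).

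Srebf1, the regulator, did not follow the enzymes in each group. It fell with Ethionine by 1.53 ± 0.28 (adjusted p = 2.36e-05), with rats at 7.89, 8.14 and 8.09 against 9.86, 9.32 and 9.54. With MeDAB it fell by 0.84 ± 0.28 (adjusted p = 0.0115), with rats at 9.06, 8.65 and 8.57 against 9.78, 9.44 and 9.57, and without MeDAB rat 3 the adjusted p was 0.0501. In AAF long, where 6 other members fell, Srebf1 differed by -0.04, with rats at 10.25, 9.52 and 8.89. In DEN long it differed by 0.50, with rats at 10.53, 10.57 and 9.18, and without rat 3 it was called higher (0.95, adjusted p = 0.0102). Thus rats 1 and 2 of DEN long had Srebf1 above every control and Scd, Acaca, Acly and Thrsp below every control. The array reads Srebf1 RNA and not the cleaved, active protein.

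Me1 and Elovl6 stood apart from the other enzymes. Me1, which makes NADPH from malate, rose with AAF long by 0.74 ± 0.22 (adjusted p = 0.012), with rats at 11.32, 10.87 and 11.02 against 10.36, 10.32 and 10.32. Without AAF rat 1 this was 0.61 (adjusted p = 0.0532). In MeDAB long it differed by -0.46, which passed only without MeDAB rat 1 among the rats left out (-0.63, adjusted p = 0.0327), and in Dioxane short by 0.65, which passed without Dioxane short rat 2 (0.88, adjusted p = 0.0306). It fell with DEN long by 0.72 ± 0.22 (adjusted p = 0.0242) and with Ethionine long by 0.67 ± 0.22 (adjusted p = 0.0128). The DEN call was lost without control rat 1, 2 or 3 or DEN rat 2 or 3 (adjusted p from 0.0574 to 0.0868), and the Ethionine call without nongenotoxic control rat 1 (-0.53, adjusted p = 0.0766). Elovl6 was called in 0 of the 12 comparisons, with differences from -0.21 to 1.25. Its controls were spread, at 7.39, 6.06 and 5.88 in the genotoxic and 8.12, 6.36 and 6.7 in the nongenotoxic set. Without nongenotoxic control rat 1, Elovl6 was called higher in the short groups of Clofibrate (1.66, adjusted p = 0.0282), Dioxane (1.78, adjusted p = 0.013) and Ethionine (1.48, adjusted p = 0.0394). That rat had a clock gene score (activator genes such as Bmal1 minus output genes such as Dbp) of -1.18, against 1.15 and 1.02 in the other controls and -2.22 to -1.17 in those 3 short groups. Genotoxic control rat 1 had -2.22 against 1.06 and 1.04, and whether the time of day differed was not tested.

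**Figure D3:**
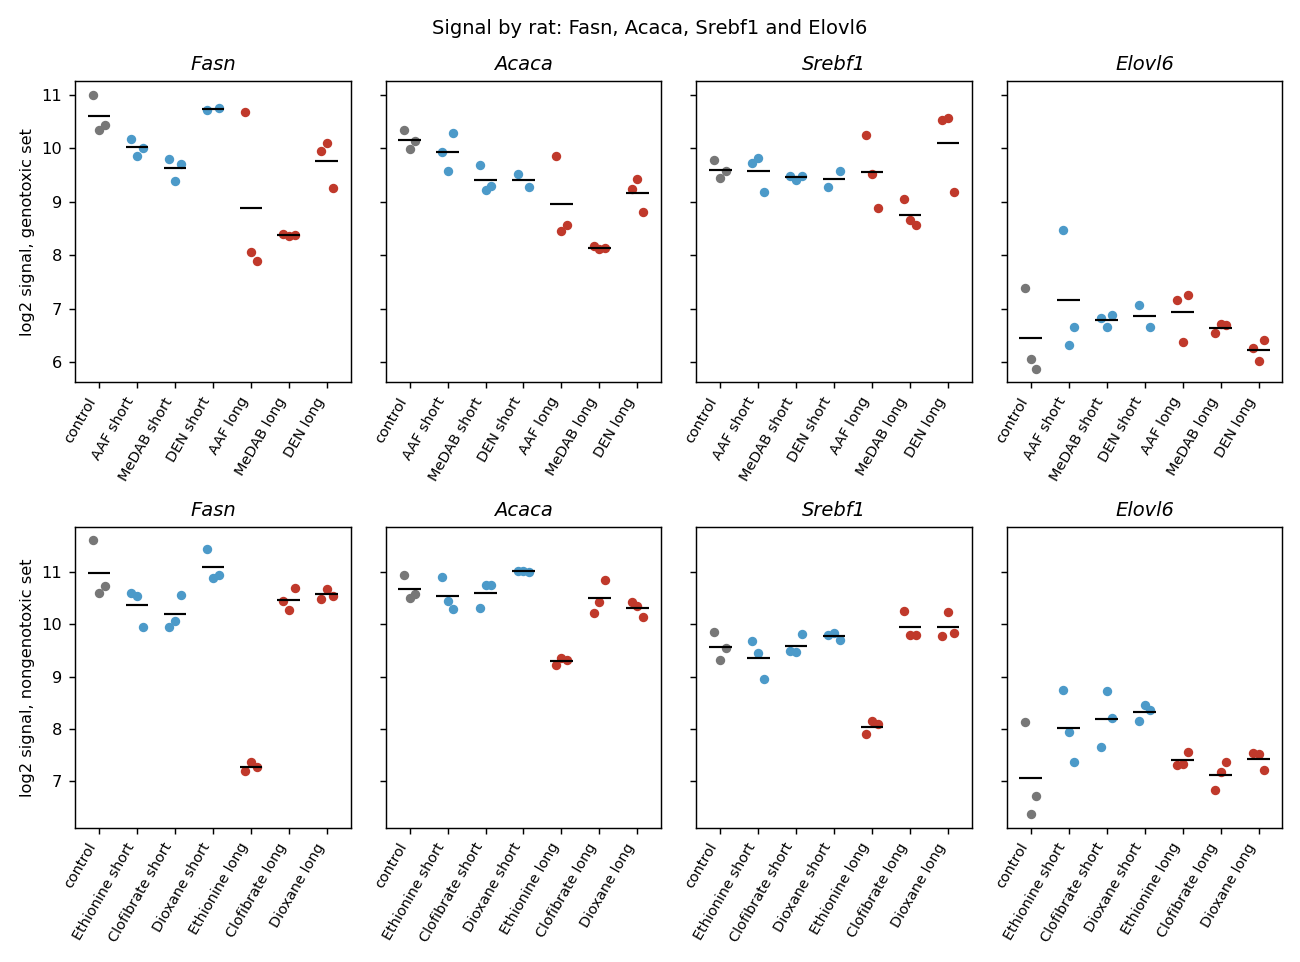
Log2 signal of Fasn, Acaca, Srebf1 and Elovl6 in each rat (points) of the genotoxic set (top) and the nongenotoxic set (bottom), with the group mean as a line, control in grey, short groups in blue and long groups in red. Ethionine long rats lie below all other rats of their set in Fasn, Acaca and Srebf1, whereas their Elovl6 values of 7.31 to 7.55 lie inside the control range.

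Of the 6 members with more than 1 probe set, Fasn, Srebf1 and Thrsp gave the same directions in the long groups where they were called. The second Acaca probe set lay below the filter level in the mean of every group. It was lower in the same groups by far less, differing by -0.11, -0.40, -0.20 and -0.18 in AAF, MeDAB, DEN and Ethionine long and was called only with MeDAB (adjusted p = 0.00261). Me1 gave opposite signs in some groups. Its second probe set was higher by 1.44 ± 0.44 in AAF long (adjusted p = 0.0172), and in MeDAB, DEN and Ethionine long it differed by 0.49, 0.23 and 0.27 with no call, where the first had differed by -0.46, -0.72 and -0.67. The Me1 falls were thus seen with 1 of its 2 probe sets. Probe set p-values were adjusted over all probe sets tested. The share of all probe sets called is not given here, so counts of called probe sets only describe the members.

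The class comparison set the mean effect of the 3 genotoxic compounds against that of the 3 nongenotoxic ones, each against its own control. Its SE and p measure the spread among rats of a group and not the spread among compounds. They therefore speak for these compounds and not for the classes at large. The control rats of both sets were taken as independent, and same-numbered ones were not checked against each other. Among the members only Scd was called at the long duration, lower with the genotoxic compounds by 4.11 ± 0.61 (adjusted p = 3.54e-05), against 3.95% of all genes lower and 7.8% higher. Its 3 genotoxic effects were -5.47, -5.71 and -2.04, and its nongenotoxic ones -2.31 with Ethionine, 0.43 with Dioxane and 0.98 with Clofibrate, so DEN and Ethionine overlapped in order. Without AAF long rat 1, Acaca (-0.91, adjusted p = 0.00328) and Thrsp (-1.51, adjusted p = 0.0446) were called too, and without MeDAB long rat 1, Fads2 (-1.04, adjusted p = 0.0218). At the short duration only Me1 was called, at -1.01 ± 0.26 (adjusted p = 0.0226), against 3.01% lower and 2.35% higher. Its effects were -0.16, -0.41 and -0.62 with AAF, MeDAB and DEN and 0.56, 0.62 and 0.65 with Ethionine, Clofibrate and Dioxane, none of which passed alone. This call was lost without genotoxic control rat 1 or 2 or nongenotoxic control rat 2 or 3 (adjusted p from 0.052 to 0.0811) and with the mean of both probe sets (-0.84, adjusted p = 0.18). From short to long, the class difference of Scd fell by 3.95 ± 0.44 (adjusted p = 4.6e-08) and that of Me1 rose by 0.58 ± 0.19 (adjusted p = 0.0127), against 15.7% of genes lower and 24.6% higher. The controls cancel in this change, which therefore compares long minus short between the classes. The mean clock gene score, given below, changed more in the nongenotoxic compounds, and its part was not tested. The Me1 change did not pass without DEN short rat 3 (0.43, adjusted p = 0.0629). Thrsp was called as well without AAF long rat 1 (-1.21, adjusted p = 0.0106) or MeDAB long rat 1 (-1.18, adjusted p = 0.0168), and Elovl6 without AAF short rat 1 (0.75, adjusted p = 0.0496).

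Long minus short of 1 compound was taken without a control, since the titles give the controls no duration. It cannot tell the compound from other differences between short and long groups. The mean clock gene score went from -2.04 to 1.92 with Ethionine, -1.61 to 1.73 with Clofibrate and -1.62 to 1.29 with Dioxane. With DEN it went from -0.61 to 1.17, with MeDAB from -0.794 to 0.218 and with AAF from 0.134 to -0.284. Its part in these results was not tested. With MeDAB 8 of the members fell (of all genes 19.4% lower, 39.9% higher), with Ethionine 9 (21% and 30.6%), with AAF 6, while Me1 rose by 0.90 (17.5% and 18.3%), and with DEN 2, Acly and Thrsp (11.7% and 18.6%). The Scd difference was -6.20 ± 0.53 with MeDAB, -5.71 ± 0.53 with AAF and -2.12 ± 0.53 with Ethionine. The Fasn and Fads2 calls of AAF were lost without AAF short rat 1 or AAF long rat 2 or 3 (adjusted p from 0.0578 to 0.219), that of Fasn also without AAF short rat 3 (adjusted p = 0.0521), and Fads1 was called without AAF long rat 1 (-0.75, adjusted p = 0.0294). The Srebf1 call of MeDAB was lost without any MeDAB short rat or MeDAB long rat 2 or 3 (adjusted p from 0.0528 to 0.103). With only its own 6 arrays AAF had 4 calls. Without DEN long rat 3, DEN had 1 call, Srebf1 higher by 1.13 (adjusted p = 0.00257), and without DEN short rat 2 it had 0. Thrsp was also lost without DEN short rat 3 (adjusted p = 0.0581), and Scd was called without DEN long rat 2 (-1.98, adjusted p = 0.015). Clofibrate and Dioxane had 0 calls in limma, with 1 and 4 members at an unadjusted p under 0.05, against 3.47% and 5.31% of all genes called and 15.3% and 18.6% at that unadjusted p. Among the 17 member probe sets, however, 1 was called lower with Clofibrate and 2 with Dioxane. The second Elovl6 probe set averaged 6.78 in Clofibrate short and 5.35 in Clofibrate long, and 7.04 and 5.62 in Dioxane short and long. When only the 6 Dioxane arrays were fitted, Acaca (-0.71), Elovl6 (-0.90) and Thrsp (-1.21) were lower. Quantile normalization of all arrays moved the median of all genes in MeDAB long minus short from 0.15 to 0.049.

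Between compounds of a set, 11 of the 24 pairs tested had a member called. In the genotoxic set at the long duration, AAF lay above MeDAB in 6 members (14.9% of genes higher, 34.2% lower). They were Acaca, Srebf1, Me1, Thrsp, Fads1 and Fads2, and without AAF rat 1 Acaca (0.37, adjusted p = 0.141), Srebf1 (0.45, adjusted p = 0.194) and Thrsp (1.05, adjusted p = 0.0859) did not pass. Srebf1 also did not pass without MeDAB rat 2 or 3 (adjusted p = 0.0606 and 0.0717), and without AAF rat 3 Fasn was called (1.0, adjusted p = 0.0365). Scd differed by 0.24 between AAF and MeDAB and did not pass. AAF lay below DEN in Scd by 3.43 ± 0.53 and above it in Me1 by 1.45 ± 0.22 (16.5% of genes lower, 14.6% higher), and without AAF rat 1 Fasn, Acaca, Srebf1, Acly, Thrsp, Fads1 and Fads2 were lower as well (-1.79, -0.65, -0.88, -0.84, -1.85, -0.74 and -1.31). Without DEN rat 3, Fasn, Srebf1, Acly and Thrsp were lower (-1.14, -1.0, -0.89 and -1.71). MeDAB lay below DEN in 8 (16.6% lower, 32.7% higher), of which Acly was lost without DEN rat 1 or 2 or MeDAB rat 2 or 3 (adjusted p from 0.114 to 0.234). After quantile normalization, all genes called in AAF minus MeDAB split into 2502 lower and 2016 higher in place of 3766 and 1639, with the median of all genes moving from -0.15 to -0.038, and in MeDAB minus DEN into 2250 and 2768 in place of 1822 and 3600. In the nongenotoxic set, Clofibrate and Dioxane each lay above Ethionine in 9 members (23.6% and 23.8% of genes higher, 31.9% and 31.7% lower), all but Elovl6. Of the 17 member probe sets, 14 were called higher and 1 lower in Clofibrate than in Ethionine, and 13 and 0 in Dioxane. The second Elovl6 probe set averaged 5.35 in Clofibrate long, 5.62 in Dioxane long and 6.26 in Ethionine long. Clofibrate and Dioxane differed from each other in 0 members at the long duration, where 0 genes in all were called and 1.91% had an unadjusted p under 0.05, with differences from -0.30 to 0.55. In the 6 short pairs of these sets 0 members were called, with at most 2 at an unadjusted p under 0.05, and the shares of all genes called were 1.79%, 12.2% and 14.5% in the genotoxic pairs (AAF with MeDAB, AAF with DEN, MeDAB with DEN) and 0%, 1.03% and 0.854% in the nongenotoxic pairs. At an unadjusted p under 0.05 these shares were 14.5%, 25.2% and 27%, and 10.2%, 13.6% and 13.9%.

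The test set can only be compared with itself. Its compounds also differed in labelled dose, apart from DCP and SN, and the part of dose was not tested. DCP short was its lowest group by mean for 8 of the 10 members, all but Scd and Me1. Acaca read 9.3, 9.24 and 9.28 in DCP short, against 10.34, 10.11 and 9.76 in ME short, 10.61, 10.41 and 10.65 in SN short and 9.93, 10.16 and 10.12 in Urethane short. No DCP rat reached the lowest of those 9. DCP short was lower than ME short in 6 members (22.5% of 10213 genes lower, 11.9% higher), than SN short in 5 (27.3% and 11.3%) and than Urethane short in 4 (20.5% and 11.8%). Fasn, Acaca, Acly and Thrsp were lower in all 3 pairs, which share the DCP rats. Acaca differed by -0.80 ± 0.16, -1.28 ± 0.16 and -0.80 ± 0.16 in that order (adjusted p from 5.52e-06 to 0.000754), and Fasn by -0.86, -1.27 and -1.27. The Fasn difference from ME was lost without DCP short rat 1, 2 or 3 or ME short rat 1 or 3 (adjusted p from 0.0559 to 0.203), and those of Elovl6 (-0.86, adjusted p = 0.0794) and Acly (-0.59, adjusted p = 0.0641) without ME short rat 1, Elovl6 also without DCP short rat 2 (-0.99, adjusted p = 0.0512). The Fads2 difference from SN was lost without DCP short rat 3 (adjusted p = 0.0601) or SN short rat 1 (adjusted p = 0.07), and Srebf1 was lower than in SN without DCP short rat 1 (-0.73, adjusted p = 0.0427). Among the 17 member probe sets, 9, 10 and 8 were called lower in DCP short than in ME, SN and Urethane short, and 1, 0 and 1 higher. The shares of genes above are not those of the probe set fit, so these counts only describe the members. The second Me1 probe set averaged 10.3 in DCP short, against 9.49, 9.9 and 9.32 in those groups. The clock gene score of DCP short was 1.78 (1.24 to 2.1), against -0.681, 0.503 and 0.285 on average in ME, SN and Urethane short, and its part in these differences was not tested. The other 3 short pairs gave 0 calls, with 1 member each at an unadjusted p under 0.05, against 1.69%, 3.55% and 2.88% of genes called and 17.1%, 20.8% and 18.4% at that unadjusted p.

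From short to long, DCP rose in 8 members (25.8% of genes higher, 14.2% lower). The mean clock gene score was 1.78 in DCP short and 0.0781 in DCP long, and its part in these differences was not tested. Acaca rose by 1.00 ± 0.16 (adjusted p = 5.9e-05), Elovl6 by 1.16 ± 0.32 (adjusted p = 0.00719) and Fads2 by 0.77 ± 0.13 (adjusted p = 0.000107), and Scd differed by -0.04. DCP long rats read 10.14, 10.37 and 10.32 for Acaca and 8.59, 8.9 and 7.98 for Elovl6, the latter against 7.4, 7.26 and 7.32 in DCP short. The second Elovl6 probe set rose by 2.07 ± 0.34. Fasn and Srebf1 rose by 0.85 and 0.80. The Fasn call was lost without DCP short rat 1 or 2 or any DCP long rat (adjusted p from 0.0598 to 0.125), the Srebf1 call without DCP short rat 3 or DCP long rat 2 (adjusted p = 0.0556 and 0.0782), and the Me1 call without DCP long rat 1 (0.40, adjusted p = 0.0577). With the mean of all probe sets Fasn (0.80, adjusted p = 0.0677) and Me1 (0.23, adjusted p = 0.239) did not pass.

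From Urethane short to Urethane long, Scd and Srebf1 moved in opposite directions. With no control in the test set, an effect of the compound cannot be told from other differences between short and long groups. Srebf1 was also higher in the long than in the short groups of DCP, ME and SN, without a call in SN. Scd read 12.61, 12.65 and 13.03 in Urethane short and 8.72, 11.93 and 9.49 in Urethane long, a fall of 2.71 ± 0.48 or 6.57-fold (adjusted p = 0.00164). The 3 long rats were far apart, but each lay below all 21 other rats of the test set. Srebf1 read 9.23, 9.17 and 9.93 in Urethane short and 10.49, 11.05 and 10.23 in Urethane long, a rise of 1.15 ± 0.24 (adjusted p = 0.00464). These were the 2 members called (5.87% of genes lower, 7.83% higher), and both missed the threshold when only the 6 Urethane arrays were fitted (adjusted p = 0.0772 and 0.0524). At the long duration, Scd in Urethane lay below DCP by 2.23, ME by 2.59 and SN by 2.42 (adjusted p from 0.00185 to 0.00521). The first of these pairs had 6 calls, 5 with DCP higher and 1, Srebf1, with DCP lower (15.3% and 15.4% of genes), and the other pairs had only Scd (3.66% and 3.56% of genes higher, 3.04% and 2.13% lower). Of the DCP pair, Srebf1 was lost without DCP long rat 1 or 3 or Urethane long rat 2 (adjusted p from 0.0625 to 0.0896), and Fads1 without any rat of either group (adjusted p from 0.0617 to 0.16). Without SN long rat 1, Acaca (0.73) and Fads2 (0.54) were also higher in SN, and without Urethane long rat 2 Fads2 (0.52). Scd in these 3 pairs missed the threshold when only the compared arrays were fitted (adjusted p = 0.0697, 0.122 and 0.145). Of the 5 macrophage markers 3 were lower in Urethane long than in Urethane short, the mean of all 5 being 8.22 (7.76 to 8.85) against 9.18 (8.75 to 9.42), and hepatocyte markers averaged 13.8 and 13.9. In ME long, Srebf1 alone was called higher than in ME short, by 0.97 ± 0.24 (adjusted p = 0.0106, against 8.77% of genes higher and 8.23% lower). This call was lost without ME long rat 2 (0.83, adjusted p = 0.0576). SN had 0 calls with 2 at an unadjusted p under 0.05, Srebf1 differing by 0.72, against 4.86% of genes called and 20.2% at that unadjusted p. DCP, ME and SN long did not differ in any member by the test (0 calls, with 2, 2 and 0 members at an unadjusted p under 0.05, against 28.5%, 30.5% and 0.0392% of genes called and 39.6%, 41% and 5.43% at that unadjusted p). Among the 17 member probe sets, 1 was called higher in DCP long than in ME long.

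**Figure D4:**
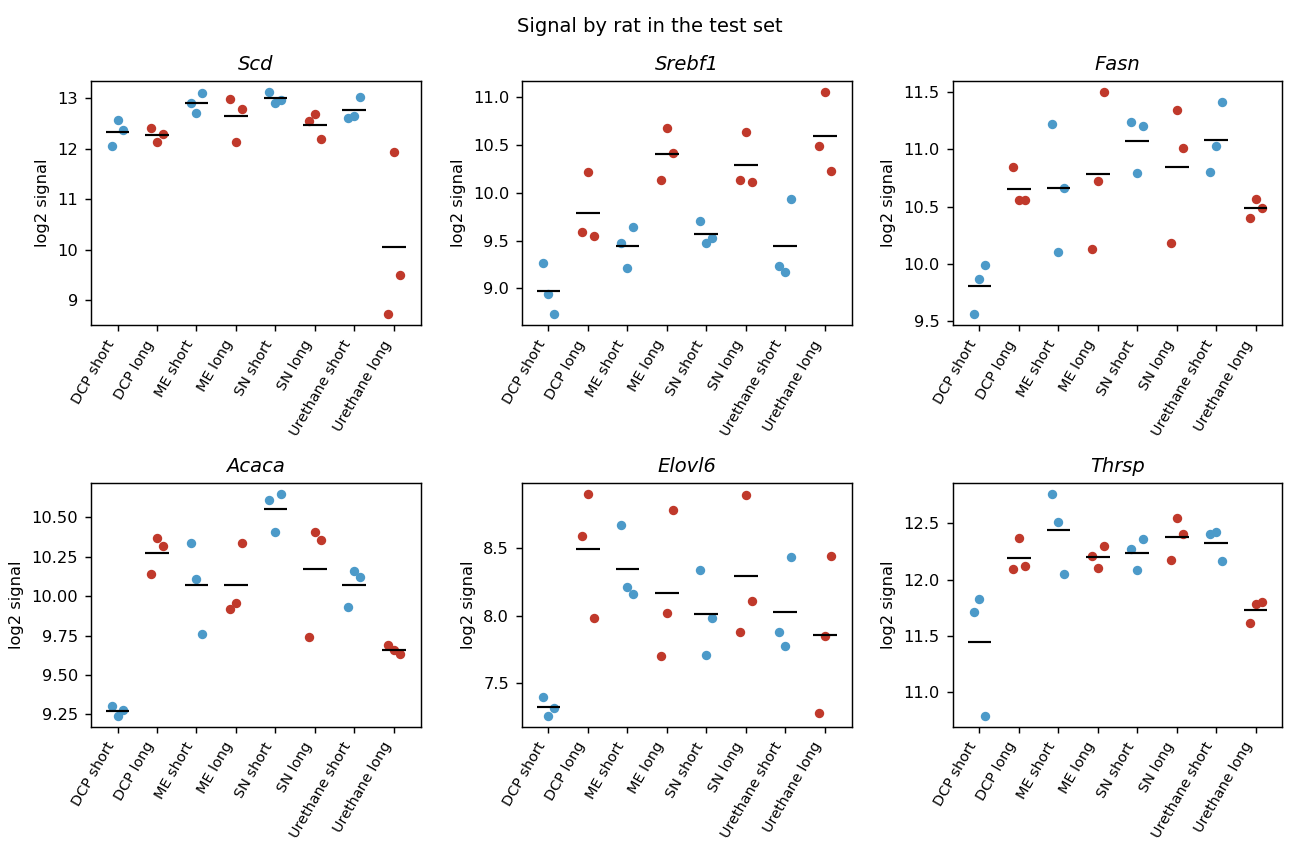
Log2 signal of 6 members in each rat (points) of the 8 test groups, with the group mean as a line, short groups in blue and long groups in red. DCP short lies lowest in Fasn, Acaca, Elovl6 and Srebf1, and Urethane long reaches from 8.72 to 11.93 in Scd, below all other groups.

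The genes around the pathway were taken from 4 lists of 40 genes, of which 35 were tested. Of these 35, 7 were called higher and 7 lower in AAF long, 8 and 10 in MeDAB long, 3 and 4 in DEN long, and 8 and 13 in Ethionine long. Of all genes, 16% were higher and 16.1% lower in AAF long, and 35.9% and 17.7% in MeDAB long. These shares were 10.4% and 6.31% in DEN long and 30% and 23% in Ethionine long. The medians of the 35 were 0.03, -0.18, 0.01 and -0.15, nearer to those of all genes than the members were. Pklr, the liver pyruvate kinase that feeds glycolytic carbon to the mitochondrion, fell in all 4, with differences of -2.88 ± 0.29, -3.07 ± 0.29, -1.05 ± 0.29 and -3.0 ± 0.29 in the same order. Acss2, which makes acetyl-CoA from acetate, fell too, with differences of -1.22 ± 0.23, -2.03 ± 0.23, -0.85 ± 0.23 and -1.5 ± 0.23. In DEN long both calls were lost without control rat 1 (adjusted p = 0.0504 and 0.0539) or DEN rat 3 (adjusted p = 0.0912 and 0.0603). Scd2, the desaturase of other tissues, fell by 1.39 ± 0.23 in AAF long and rose by 0.96 ± 0.23 in DEN long. Gpam, the first step of triglyceride synthesis, rose in MeDAB long by 1.70 ± 0.24, in AAF long by 1.03 ± 0.24 and in Ethionine long by 0.92 ± 0.24. Insig1, which holds SREBP proteins in the endoplasmic reticulum and is itself one of their targets, rose in Ethionine long by 1.94 ± 0.38 (adjusted p = 8.08e-05) and fell in MeDAB long by 1.16 ± 0.38 (adjusted p = 0.0113). In AAF short, where no member was called, Lpin1 rose by 2.72 ± 0.45 and Mid1ip1, a partner of Thrsp and Acaca, fell by 2.48 ± 0.45. Insig1 rose there by 1.37 ± 0.38, a call lost without AAF short rat 1 or any control rat (adjusted p from 0.0512 to 0.144). In DCP, Insig1 fell from short to long by 2.39 ± 0.35 while 8 members rose.

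Across the 65 arrays, with each gene centred within its set, members followed the mean of the other 9 to unlike degrees. The correlation was 0.947 for Thrsp, 0.934 for Fads2, between 0.858 and 0.884 for Acaca, Fasn, Fads1 and Acly, 0.682 for Scd, 0.609 for Srebf1, 0.409 for Me1 and 0.233 for Elovl6. These values are a description, in which groups of rats share treatment. The 5 other genes most like the mean of the members, of 10034 genes, were Ebp (0.94), Plg (0.938), Pklr (0.936), Acss2 (0.933) and Pemt (0.93). Within the test set alone their correlations were 0.279, 0.377, 0.799, 0.561 and 0.682.

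With group means removed, the rats' Srebf1 values were set against the other 9 members, using 100000 two-sided permutations of rats within groups and adjustment over the 9 relations. Acly (r = 0.633, rho = 0.583, adjusted permutation p = 0.00045 and 0.00072) and Fasn (r = 0.599, rho = 0.521, adjusted permutation p = 0.00045 and 0.00144) followed Srebf1 most closely. The unadjusted permutation p was 1e-04 and 8e-05 for Acly and 9e-05 and 0.00032 for Fasn. Within the genotoxic, nongenotoxic and test sets r was 0.695, 0.699 and 0.516 for Acly and 0.713, 0.697 and 0.342 for Fasn. Without the 2 rats farthest from the median, DEN long rat 3 and AAF long rat 1, r was 0.535 and 0.518. Fads1 (r = 0.356, rho = 0.329) and Fads2 (r = 0.392, rho = 0.334) passed with adjusted permutation p of 0.0304 and 0.0497, and 0.0243 and 0.0497. After quantile normalization neither passed by rho (adjusted permutation p = 0.054 for each). Fads1 had r = -0.0428 within the nongenotoxic set, and without the 2 rats r was 0.31 and 0.361. Thrsp passed by r only (0.564, adjusted permutation p = 0.0195, against 0.0629 for rho), with r = 0.852 in the genotoxic and -0.0751 in the nongenotoxic set. Scd, Acaca, Elovl6 and Me1 did not pass by either measure.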

How the data were processed

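Affymetrix arrays, 1 for each of 65 rats, measured liver RNA. The authors deposited log2 signals for 31099 probe sets, made with RMA per the series' design text, where no version is named and 1 failed array is reported as excluded. The lowest values of the arrays were 3.3312 to 3.412, 3.2294 to 3.3046 and 2.2774 to 2.3995 in the genotoxic, nongenotoxic and test sets, so the sets appear to have been normalized apart and were compared only within a set or as effects against their own control. Groups come from the titles. Precision is limited by the number of arrays. Dose entered no model.

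Of the probe sets, 20826 have 1 gene symbol in the platform annotation, 436 several and 9780 none, and 57 controls were left out. The brightest probe set stood for each of 14217 genes. Genes above the median (6.03, or 5.65 in the test set) in at least 2 arrays were tested, and all 10 members passed. A mean per group was fitted in R 4.3.3 by limma (version 3.58.1), over 41 arrays of both training sets (27 residual degrees of freedom, prior 4.02, 11007 genes) and 24 of the test set (16, 2.95, 10213), with eBayes, two-sided, and Benjamini-Hochberg adjustment over the genes of a comparison. The fit was tested on simulated data. Figures used Python 3.11.15, matplotlib 3.10.9 and pandas 2.3.3.

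The members, lists and tests were chosen with earlier results of these data known. Named are all members, up to 3 called genes with the largest differences of the other lists in a described comparison, and the 5 genes most like the members; Fabp4, Scd2 and the repeats of a named gene in other groups were picked after their values were seen. Of the 40 listed lipogenic genes, 35 were tested, and the others are not reported here. Same-numbered rats did not deviate together (100 pairs, r from -0.337 to 0.357, median 0.0206; in 2 of 34 comparisons every pair was over 0.1), so no pairing was used. Alternatives were no filter, a stricter filter (7.99, or 7.7), the mean over the probe sets of a gene, eBayes with a trend and robust variances, quantile normalization across all columns, only the compared arrays, a replicate block and each rat left out.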

Additional observations from a re-analysis of the deposited data

Results flagged for a closer look

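The results that differed between the 2 classes by a test of the difference itself numbered 4. That test did not take in the spread among the compounds of a class. The effect of the genotoxic minus that of the nongenotoxic compounds was -4.11 for Scd at the long duration and -1.01 for Me1 at the short duration. From short to long this class difference moved by -3.95 for Scd and by 0.58 for Me1. For Scd at the long duration AAF and MeDAB lay at -5.47 and -5.71 against control, DEN at -2.04 and Ethionine at -2.31. Me1 passed the test in 0 of the 6 short groups alone, and its second probe set gave no class call at either duration.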

How the results depend on the processing

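Over 6970 alternative runs of the 490 member results, 6778 kept direction and side of the threshold, 117 lost and 75 gained the call and 0 called values changed sign. Of 128 called results 86 kept the call under every alternative, and 52 uncalled ones were called under some. With no filter, after quantile normalization and with the replicate block, DEN short against control had 0 calls in place of 1. The mean of all probe sets left 0 calls in the short class comparison in place of 1. Fitting only the compared arrays gave 4 in place of 7 for AAF long against control and for AAF long minus short, 3 in place of 0 for Dioxane long minus short, 0 in place of 1 for ME long minus short, and 3 in place of 0 for the genotoxic short pairs. The replicate block gave 1 call in those pairs, Fasn in MeDAB minus DEN (-1.23, adjusted p = 0.0405), and changed no other count of member calls by over 1.5 times. After quantile normalization 2 members (Fasn and Acly) in place of 4 followed Srebf1 by both measures. Mbtps1 in MeDAB long was -0.17 after quantile normalization (adjusted p = 0.0428), against 0.02 without a call as deposited.

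Leaving out 1 rat at a time gave 0 to 1 calls for DEN short, Clofibrate short, Dioxane short and Ethionine short against control, for the short class comparison and for ME long minus short. It gave 2 to 5 for DEN long against control, 1 to 3 for the long class comparison and for its change from short to long, and 0 to 3 for DEN long minus short, where without DEN long rat 3 the 1 call was higher rather than lower. The other counts against control and from short to long, and the totals over the pairs of a set and duration, stayed within 1.5 times, while single pairs moved by more, as given beside them. Calls of the other lipogenic genes against control numbered 74 (65 to 80).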
